A study of Mus musculus with 4 samples.

Results

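Of the 46603 gene IDs in the table, 42 were read as genes of macrophages and other blood cells, each found by its symbol and each with 1 ID. They were picked by name, by a reader who already knew results of the same comparison, among them that Lcp1, Ctss, Mpeg1 and C3ar1 were called different between the groups. The difference between the groups is therefore a description of these genes and not independent evidence about them. They were divided by their mean over all libraries into 8 abundant members, with a mean normalized count of at least 500, and 34 rare members below it. Mrc1 lay just inside this limit with a mean of 593, and Lcp1 just outside it with 453. A normalized count is the number of reads on a gene divided by the size factor of its library, which corrects for sequencing depth.

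The libraries came from mouse embryonic stem cells of Gsk3a-/-;Gsk3b-/- genotype, which lack both forms of glycogen synthase kinase 3, and from wild-type cells, each with 2 biological replicates. Both genotypes were grown with serum and leukaemia inhibitory factor over a layer of irradiated fibroblasts, the feeders, whose RNA can be sequenced along with that of the stem cells. The labels give embryonic day 16 for the cells, the design text another day, and neither names a clone. The table compares a group B with a group A, and no source used here says which genotype is B and which is A, so genotypes are not assigned to the values. Reads of each library, recovered from the group means, are given for B1, B2, A1 and A2; this numbering is arbitrary and unrelated to that of the labels. Libraries held 146326307 counts in B1, 112655210 in B2, 143182371 in A1 and 134463318 in A2. Of the targeted genes, Gsk3a had normalized counts of 1697 and 1347 in the B libraries against 6353 and 7104 in the A libraries, a log2 fold change of -2.14 in the table the authors deposited (adjusted p 4.9e-24). Gsk3b had 5051 and 5002 in B against 5438 and 6285 in A. All 8 embryonic stem cell markers were read in every library, and their summed normalized counts lay between 678689 and 817799. No gene on chromosomes X, Y or M has a count in the table, so X-linked genes of this lineage such as Cybb are not analysed here.

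Macrophages are phagocytes that arise in the embryo from the yolk sac and later from blood stem cells. The factor PU.1, encoded by Spi1, binds DNA of the ETS type and drives much of their gene programme, and the receptor Csf1r keeps them alive in response to the ligands Csf1 and Il34. Activating Fc receptors and Trem2 pass their signal through the adaptors Fcer1g and Tyrobp, which carry an activating tyrosine motif. Embryonic stem cells are not blood cells, but some of the genes used as blood markers are read in other cells too.

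The authors' deposited table called 9 of the 42 members higher in group B and 3 lower at an adjusted p below 0.05, while 30 did not pass. Of all genes with a count, 1.54% were called higher and 1.92% lower, and of those averaging 10 or more, 2.28% and 2.84%. In the authors' deposited table, 8 of the 34 rare members were higher in group B, 1 was lower and 25 did not pass. Over all genes with a mean below 500, 0.823% were called higher and 1.27% lower. Of the 8820 among them averaging 10 or more, 153 were called higher and 237 lower. Among the 8 abundant members 1 was higher, 2 were lower and 5 did not pass in the authors' deposited table, where 2.69% of genes averaging 500 or more were called higher and 2.95% lower. Since the members were picked with this comparison known, nothing is read from these shares. The median log2 fold change was 1.48 over 33 rare members and -0.30 over the abundant ones in the authors' deposited table, against a median of 0.01 over the 20465 genes averaging 10 or more. Clec7a was left out of the rare median, because its only reads in the 4 libraries were 2 counts in B1. The mean reached 10 in 29 of the rare members and in all 8 abundant ones. The lower B library exceeded the higher A library in 25 rare and 2 abundant members, against 17.2% of genes below 500, 29.1% of those at or above it and 21.8% of all genes with a count (26.4% of those averaging 10 or more). The higher B library lay under the lower A library in 5 rare and 5 abundant members, against 20.6%, 26% and 22.7% of the same groups of genes.

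A second test, limma on the recovered normalized counts, called 5 members higher (Ctss, Lcp1, Lyz2, Mpeg1 and Spi1) and 0 lower, where it called 0.977% of 20465 genes higher and 1.03% lower. All 12 members called by the authors kept their direction in limma, and all 12 had an unadjusted p below 0.05. These 12 members also kept their direction with each library left out in turn. Without B1 or without B2 the spread rests on the A pair alone, so no call is read from those fits. Without A1 or without A2 limma called 0 members, and 0 of the 20465 genes, and the largest of the adjusted p values of the 12 members was 0.419 and 0.487. The spread then rests on the B pair alone. Each group has 2 libraries, so all p-values rest on a spread estimated from few samples, and limma also draws on the spread of other genes.

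**Figure D1:**
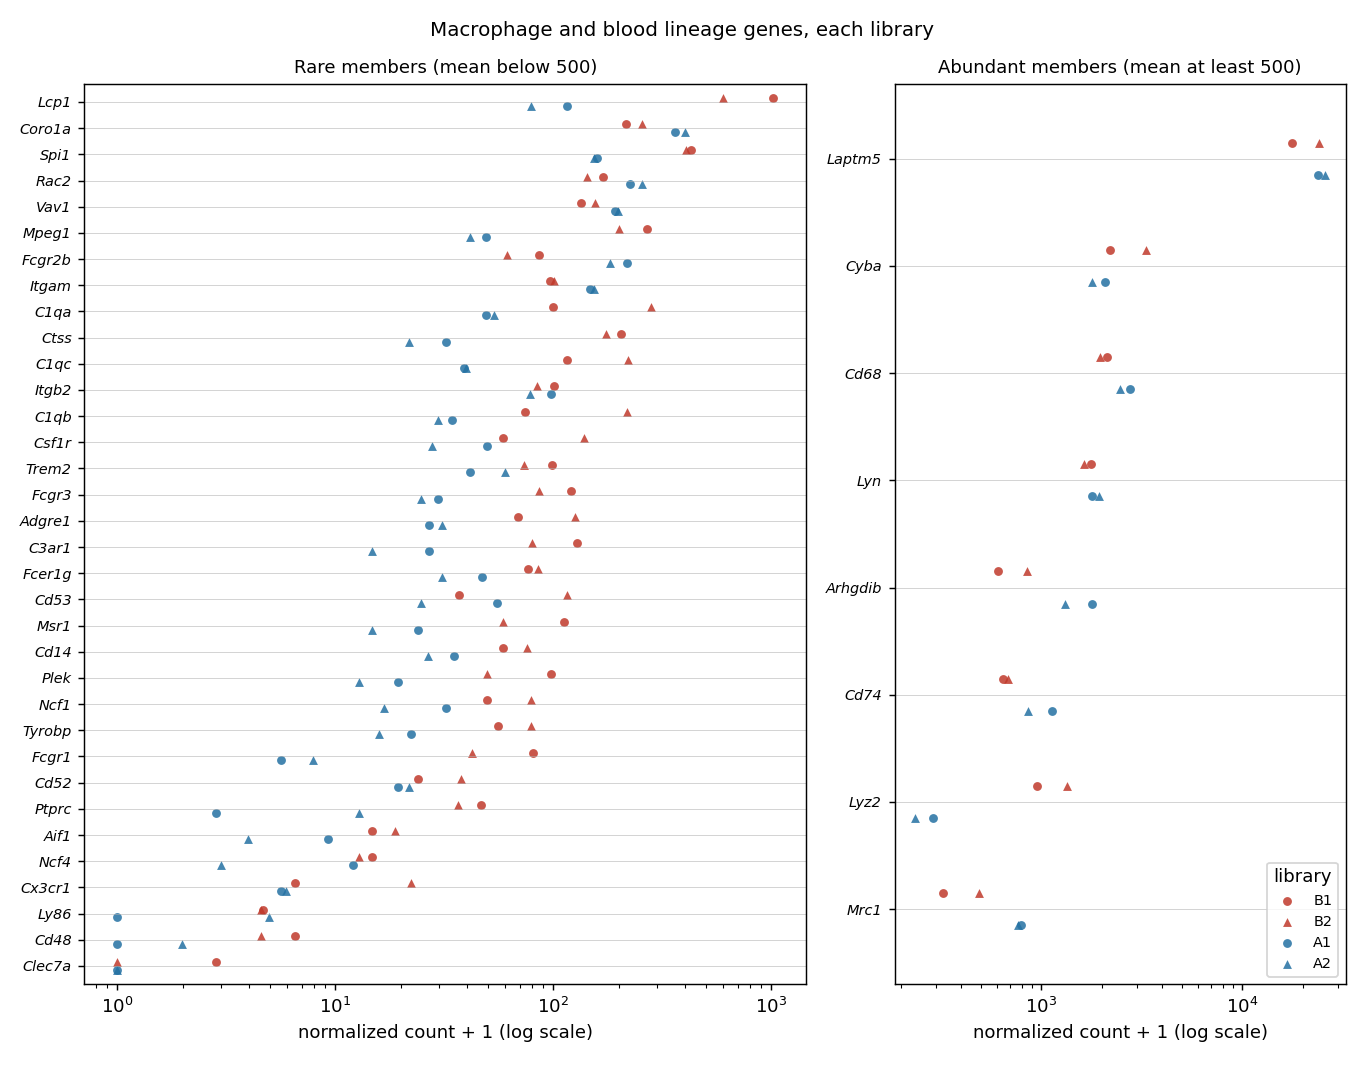
Normalized count plus 1 (log scale) of each member in each library, with rare members on the left and abundant members on the right, group B in red and group A in blue. Most rare members have both red points to the right of both blue points, whereas 5 of the 8 abundant members have both red points to the left.

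Spi1, which encodes PU.1, stood among the members with the closest replicates. Its normalized counts were 426 and 403 in B1 and B2, against 158 and 153 in A1 and A2. The B libraries were about 2.66 times as high in the authors' deposited table (log2 fold change 1.41, adjusted p 5.71e-05), and limma gave 1.41 with an SE of 0.212 (adjusted p = 0.0418). Spi1 lies on chromosome 2 from 91082390 to 91115756 (mm10). The other 10 myeloid transcription factors set beside it had 0 genes that passed, in either direction, by the authors' deposited table. Runx1, needed for the first blood stem cells, had normalized counts of 4287 and 2090 in B against 468 and 366 in A, and did not overlap between the groups. Its log2 fold change of 2.94 missed the threshold in the authors' deposited table (adjusted p 0.0577) and passed in limma (2.85, SE 0.352, adjusted p = 0.0312). Klf4, also a pluripotency factor and the most abundant of that list, had 66858 and 55268 in B against 57657 and 54970 in A.

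The rare members called higher, other than Spi1, include proteins of phagocytosis, digestion and cell shape. Lcp1 encodes the leukocyte actin bundler L-plastin and had the most reads among rare members. It had normalized counts of 1018 in B1 and 601 in B2, against 115 in A1 and 78.1 in A2. Its B libraries lay well apart from each other and far above both A libraries, with a limma log2 fold change of 3.03 (SE 0.344, adjusted p = 0.0309). Ctss, the lysosomal protease cathepsin S that trims the invariant chain, had 204 and 174 in B against 31.3 and 20.8 in A. Its groups did not overlap, and the limma log2 fold change was 2.83 (SE 0.344, adjusted p = 0.0312). Mpeg1, a pore-forming protein of the phagosome, had 268 and 199 in B against 47.9 and 40.5 in A. Groups did not overlap, and limma gave 2.36 (SE 0.303, adjusted p = 0.032). For Lcp1, Ctss and Mpeg1 the authors' deposited table gave 3.07, 2.86 and 2.40 on the log2 scale, with adjusted p values of 0.00165, 5.71e-09 and 1.59e-07.

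Receptors held calls in both directions. Of 12 surface receptors 3 were higher and 2 lower in the authors' deposited table. Fcgr1, the high-affinity receptor for IgG, had 87 and 35 counts in B1 and B2 against 5 and 7 in A1 and A2, and 3.39 on the log2 scale in the authors' deposited table (adjusted p 0.0169). C3ar1, which binds the complement fragment C3a, had normalized counts of 128 and 79.2 in B against 25.8 and 13.8 in A (authors' deposited table: log2 2.39, adjusted p 0.00804). Fcgr3, a low-affinity activating IgG receptor, had 120 and 85.1 in B against 28.6 and 23.7 in A (authors' deposited table: log2 1.97, adjusted p 0.00377). In each of the 3 genes both B libraries lay above both A libraries, B1 lay above B2, and limma missed the threshold (adjusted p = 0.0502, 0.0653 and 0.0606).

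Fcgr2b, the inhibitory IgG receptor, ran the other way. Its normalized counts were 85.3 and 60.3 in B against 216 and 180 in A, and it fell by 1.44 on the log2 scale in the authors' deposited table (adjusted p 0.00499; limma -1.44, SE 0.303, adjusted p = 0.0743). Fcgr1, Fcgr3 and Fcgr2b are related in sequence, and reads shared between such genes could be split by the counting, so their values are uncertain. Fcgr4, the remaining activating receptor of this family, had 2 and 3 counts in B and 0 in both A libraries. Mrc1, the mannose receptor and the only abundant member among the receptors, had 322 and 489 in B against 792 and 767 in A. Both B libraries were below both A libraries and Mrc1 fell by 0.94 on the log2 scale in the authors' deposited table (adjusted p 0.00159), while limma gave -0.97 (SE 0.247, adjusted p = 0.109).

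The remaining receptors did not pass in the authors' deposited table. Csf1r, whose loss removes most tissue macrophages in mice, had normalized counts of 57.8 in B1, 137 in B2, 48.8 in A1 and 26.7 in A2. B2 stood apart and B1 was close to A1, and the limma log2 difference was 1.28 (SE 0.537, adjusted p = 0.257). Csf1r shares 873 exon bases with Hmgxb3 on the opposite strand, a gene with 32403 reads in all against 259 for Csf1r, and the sources used here do not state whether counting used the strand. The scavenger receptor Msr1 had 111 and 57.9 in B against 23 and 13.8 in A, and Adgre1, an adhesion receptor much used to mark mouse macrophages, had 67.8 and 125 against 25.8 and 29.7. Neither overlapped between the groups, with limma log2 differences of 2.10 (SE 0.483) and 1.70 (SE 0.414) at adjusted p = 0.0887 and 0.0992. Cd14, a receptor for bacterial lipopolysaccharide, had 57.8 and 74.5 in B and 34.1 and 25.7 in A. Trem2, a lipid sensor of microglia, had 97.2 and 72.1 in B and 40.5 and 59.3 in A. Clec7a, which binds fungal glucans, had 2 counts in B1 and 0 in the other libraries, and gets no fold change. Cx3cr1, the receptor of fractalkine, had 6 and 18 counts in B and 5 and 5 in A.

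Of 10 ligands, mostly of these receptors and of other blood cell receptors, 0 passed in the authors' deposited table. Csf1 had normalized counts of 784 in B1, 3679 in B2, 3124 in A1 and 1279 in A2, an order shared with the feeder fibroblast markers described below. Apoe, which binds Trem2, had 45652 and 97302 in B against 61753 and 51198 in A. Groups overlapped for both ligands.

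The adaptors and the complement genes did not overlap between the groups, with B on top, but did not pass in the authors' deposited table. Tyrobp had normalized counts of 55 and 78 in B against 21.2 and 14.8 in A, and Fcer1g had 75.2 and 83.9 against 46.1 and 29.7. Neither gene overlapped between the groups, and the adjusted p values were 0.0622 and 0.407 in the authors' deposited table. C1qa, C1qb and C1qc encode the 3 chains of C1q, the recognition unit of the classical complement pathway, and lie side by side on chromosome 4 between 136880129 and 136898803 (mm10). C1qa had normalized counts of 98.1 and 279 in B against 47.9 and 52.4 in A. C1qb had 73.3 and 216 in B against 33.2 and 28.7 in A. C1qc had 115 and 219 in B against 37.8 and 38.6 in A. B2 was the higher B library for each chain, the A libraries were nearly equal, and limma gave log2 differences of 1.70 (SE 0.52), 2.00 (SE 0.549) and 2.02 (SE 0.394). Without B1 the limma log2 differences were 2.45, 2.77 and 2.49, and without B2 they were 0.96, 1.22 and 1.56. The size for each chain thus rests on which B library is used. The spread comes from the A pair alone in these fits, so no call is read from them.

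**Figure D2:**
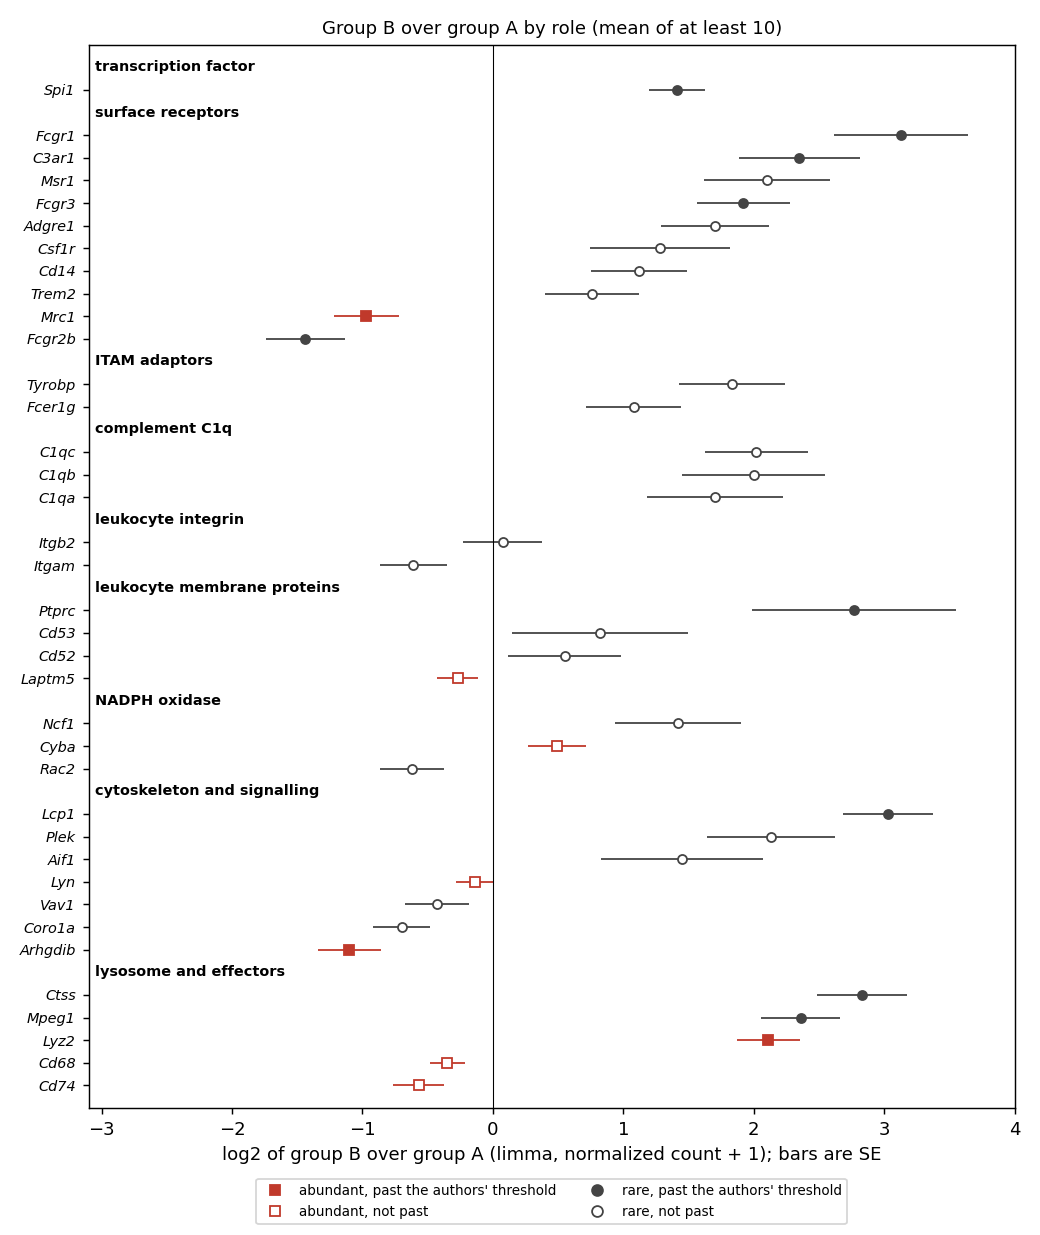
Log2 of group B over group A (limma on normalized count plus 1, bars are SE from 2 libraries a group) for the 37 members with a mean of at least 10, ordered by role. Squares are abundant and circles rare members, and filled symbols passed the authors' threshold: 9 lie to the right of 0 and 3 to the left.

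Of the 5 leukocyte membrane proteins 1 was higher and 4 did not pass in the authors' deposited table. Ptprc, the leukocyte common antigen phosphatase, had 50 and 30 counts in B against 2 and 12 in A, and was called higher in the authors' deposited table at 2.57 on the log2 scale (adjusted p 0.0471). Limma gave 2.77 (SE 0.781, adjusted p = 0.129), with 1.68 without A1 and 3.86 without A2, so the size rests on which A library is used. Laptm5, a lysosomal membrane protein that dampens lymphocyte receptors, was the most abundant member, with normalized counts of 17665 and 24220 in B against 23927 and 25863 in A. Its groups overlapped (log2 -0.25 and adjusted p 0.921 in the authors' deposited table). Per kilobase of annotated exon, the mean of Laptm5 was 5529 in B and 6572 in A, whereas that of Ptprc was 2.22 in B and 0.374 in A. The tetraspanin Cd53 had 35.8 in B1, 115 in B2, 54.4 in A1 and 23.7 in A2, so its groups overlapped. Cd52 had 22.9 and 36.7 in B and 18.4 and 20.8 in A, and shares 172 exon bases with Crybg2 on the opposite strand. Cd48, a ligand of immune cells, had 6 and 3 counts in B and 0 and 1 in A.

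The heterodimer of Itgam and Itgb2 is the complement receptor integrin of myeloid cells. Itgam had normalized counts of 95.3 and 100 in B against 147 and 153 in A, with both B libraries below both A libraries and an adjusted p of 0.651 in the authors' deposited table. Itgam shares 3450 exon bases with Gm49368 on the same strand, so reads of the 2 genes could be confused, and no value of Gm49368 was used here. Itgb2 had 99.9 and 82.8 in B and 96.7 and 77.1 in A, which overlap.

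Subunits of the phagocyte NADPH oxidase, which makes superoxide, had 0 of 4 members that passed in the authors' deposited table. Cyba, a membrane subunit that many cell types make, had 2208 and 3303 in B against 2076 and 1783 in A (log2 fold change 0.51, adjusted p 0.887 in the authors' deposited table). Ncf1, a cytosolic subunit, had 48.6 and 78 in B and 31.3 and 15.8 in A, and shares 408 exon bases with Gtf2ird2 on the opposite strand. Rac2, the blood cell form of the Rac GTPase, had 168 and 142 in B and 223 and 255 in A. Ncf4, another cytosolic subunit, had 15 and 10 counts in B and 12 and 2 in A.

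Of the 7 cytoskeletal and signalling members, 1 (Lcp1) was higher, 1 (Arhgdib) lower and 5 did not pass in the authors' deposited table. Arhgdib, a signalling regulator abundant in blood cells, had 606 and 843 in B against 1779 and 1313 in A. It fell to 0.469 of the A mean in the authors' deposited table (adjusted p 0.0294), and limma gave -1.10 (SE 0.24, adjusted p = 0.0808). Coro1a, an actin regulator, had 215 and 253 in B and 361 and 400 in A, and Vav1, which activates Rac, had 133 and 155 in B and 191 and 197 in A. Neither overlapped between the groups, with adjusted p values of 0.155 and 0.88 in the authors' deposited table. Lyn, a Src-family kinase, had 1764 and 1621 in B and 1781 and 1944 in A. Plek, a substrate of protein kinase C, had 96.3 and 48.5 in B and 18.4 and 11.9 in A, with an adjusted p of 0.148 in the authors' deposited table. Plek shares 199 exon bases with Cnrip1 and Coro1a 26 with Bola2, each on the opposite strand. Aif1, a calcium-binding protein of microglia, had 15 counts in each B library and 9 and 3 in A.

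Lysosomal and effector members held the abundant gene called higher. Lyz2, which encodes the lysozyme of macrophages, had 951 and 1338 in B against 289 and 234 in A. Groups lay far apart, with a log2 fold change of 2.13 and an adjusted p of 8.8e-05 in the authors' deposited table, and limma gave 2.11 (SE 0.242, adjusted p = 0.0309). Its near-identical neighbour Lyz1 on chromosome 10, not a member, had 105 and 141 in B against 32.2 and 29.7 in A, and reads could be split between them. Cd68, a glycoprotein of late endosomes, had 2128 and 1960 in B and 2748 and 2458 in A. Cd74, the invariant chain of class II molecules, had 642 and 683 in B and 1124 and 859 in A. Neither Cd68 nor Cd74 passed in the authors' deposited table (adjusted p 0.592 and 0.197). Ly86, which pairs with a homolog of toll-like receptors, had 4 and 3 counts in B and 0 and 4 in A.

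Class II genes were set beside Cd74 because most of their products act with it in antigen presentation. Of 6 class II genes 0 passed in the authors' deposited table. In 4 of them the groups did not overlap, with B on top, against 26.4% of all genes averaging 10 or more. H2-Eb1 had normalized counts of 1017 and 481 in B against 125 and 70.2 in A (limma log2 2.89, SE 0.45, adjusted p = 0.0453; adjusted p 0.0802 in the authors' deposited table). H2-DMa had 276 and 458 in B and 304 and 243 in A, which overlap.

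Promoter letters were read for 29 of the members, in windows of 250 bases before to 50 after a RefSeq start (GRCm38.p6, the build of mm10). All letters named here were searched on both strands. The letters AGGAAG, the core to which ETS factors such as PU.1 bind, were in 58.3% of the 36 windows of members and in 35.4% of all 32851 windows. By gene, 6 of the 8 members called higher with a window held them, 2 of the 3 called lower and 11 of the other 18. The longer GAGGAAGT, which contains that core, was in 4 windows of members (Ctss, C1qc, Cd53 and Vav1), or 11.1%, against 3.2% of all. TCF/LEF letters, CTTTGAT or CTTTGAA, were in 8.33% of member windows and 8.65% of all. By gene, 2 of the 8 members called higher held them, 1 of the 3 called lower and 0 of the other 18. A match of letters does not show that a factor binds. Shown are 3 members called higher with the core (Ctss, Fcgr1, Lyz2), Mpeg1 as a member called higher without it, Mrc1 as a member called lower with it, and Laptm5 as the most abundant. Sequences are from RefSeq, 5′ to 3′ on the strand of the gene, and capitals mark AGGAAG or its reverse complement.
Ctss, chr3:95526536-95526835, plus strand: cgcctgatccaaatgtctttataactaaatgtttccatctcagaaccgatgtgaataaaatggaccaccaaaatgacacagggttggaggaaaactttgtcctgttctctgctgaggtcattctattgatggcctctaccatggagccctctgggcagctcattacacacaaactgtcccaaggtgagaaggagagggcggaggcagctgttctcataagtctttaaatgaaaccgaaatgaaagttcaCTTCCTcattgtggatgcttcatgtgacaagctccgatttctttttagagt
Fcgr1, chr3:96293920-96294219, minus strand: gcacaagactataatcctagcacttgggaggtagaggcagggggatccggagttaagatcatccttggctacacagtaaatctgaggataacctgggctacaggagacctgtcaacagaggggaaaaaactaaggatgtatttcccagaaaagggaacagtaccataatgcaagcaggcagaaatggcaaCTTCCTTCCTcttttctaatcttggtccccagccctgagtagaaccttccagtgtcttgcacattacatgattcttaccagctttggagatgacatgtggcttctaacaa
Lyz2, chr10:117282223-117282522, minus strand: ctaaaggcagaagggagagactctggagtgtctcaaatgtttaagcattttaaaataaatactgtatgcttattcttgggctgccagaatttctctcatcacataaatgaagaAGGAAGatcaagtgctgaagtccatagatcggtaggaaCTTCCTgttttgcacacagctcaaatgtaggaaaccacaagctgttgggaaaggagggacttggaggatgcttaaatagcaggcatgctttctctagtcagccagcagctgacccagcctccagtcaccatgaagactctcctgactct
Mpeg1, chr19:12460520-12460819, plus strand: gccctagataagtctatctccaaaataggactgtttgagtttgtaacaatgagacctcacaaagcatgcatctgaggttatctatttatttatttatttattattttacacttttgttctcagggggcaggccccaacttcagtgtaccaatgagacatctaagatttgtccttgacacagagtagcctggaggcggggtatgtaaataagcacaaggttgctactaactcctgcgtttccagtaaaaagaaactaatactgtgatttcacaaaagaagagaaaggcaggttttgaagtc
Mrc1, chr2:14229164-14229463, plus strand: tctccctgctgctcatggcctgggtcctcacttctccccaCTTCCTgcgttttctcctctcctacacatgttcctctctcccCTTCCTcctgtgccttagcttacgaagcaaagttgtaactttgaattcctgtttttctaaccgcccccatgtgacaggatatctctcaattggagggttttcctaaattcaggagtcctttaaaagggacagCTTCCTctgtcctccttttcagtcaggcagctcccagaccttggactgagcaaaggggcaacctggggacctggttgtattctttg
Laptm5, chr4:130913066-130913365, plus strand: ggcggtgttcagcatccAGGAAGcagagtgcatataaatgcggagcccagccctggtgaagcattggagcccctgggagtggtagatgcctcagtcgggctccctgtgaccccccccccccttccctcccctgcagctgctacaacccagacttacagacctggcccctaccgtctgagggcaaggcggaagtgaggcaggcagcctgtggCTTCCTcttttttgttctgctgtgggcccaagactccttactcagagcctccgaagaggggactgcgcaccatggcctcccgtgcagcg
In Ctss the core begins 1 base before the start, and in Fcgr1 2 cores overlap, at 60 and 56 bases before it. Mrc1 has 3 cores. The Laptm5 window also holds TATAAA, and the Ctss window holds its reverse complement, TTTATA. On either strand TATAAA is in 13.6% of all windows.

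Libraries of a group differed for some members, and feeder and endoderm markers differed along with them. All 8 rare members called higher had B1 above B2, with a median log2 ratio of B2 over B1 of -0.46. Over the 34 rare members the same median was -0.059, and 16 had B2 above B1. The 17 feeder fibroblast markers had summed normalized counts of 49070 in B1, 207820 in B2, 142828 in A1 and 71840 in A2, with B2 above B1 in 16 and A1 above A2 in 17. Among them Col1a1 had 8757 in B1, 55013 in B2, 31482 in A1 and 17177 in A2, and Col1a2 had 9468, 56892, 37638 and 17900 in the same order of libraries. None of the 17 passed in the authors' deposited table, and limma called Pdgfra higher (adjusted p = 0.0456). Pdgfra had 7979 in B1, 3608 in B2, 1139 in A1 and 770 in A2, and was the only one of the 17 with B1 above B2. Its libraries ran in the order of the endoderm sums given below, unlike the feeder sums. Among members, Cd53 and Csf1r stood out with B2 well above B1 and A1 well above A2, and so did the ligand Csf1. Other members also had B2 above B1 and A1 above A2. Among these, the log2 ratios of B2 over B1 and of A1 over A2 were 0.67 and 0.94 in Ncf1. They were 0.50 and 0.49 in Tyrobp, and 0.34 and 1.23 in Aif1. The part of feeder cells in those values was not tested.

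The 13 endoderm markers had summed normalized counts of 337438 in B1 and 181614 in B2, against 113369 in A1 and 83499 in A2, with B1 above B2 in 12. None passed in the authors' deposited table. In 7 the groups did not overlap, with B on top, against 26.4% of all genes averaging 10 or more. Limma called 3 of the 13 higher (Gata6, Sox17 and Lama1, adjusted p = 0.034, 0.0365 and 0.0373), against 0.977% of all genes averaging 10 or more. The list was chosen with earlier results known, so nothing is read from these shares. Gata6, an endoderm transcription factor, had 8215 and 3503 in B against 744 and 535 in A. Sox17, another, had 3231 and 1427 in B against 271 and 140 in A. Col4a1 had 118105 and 54287 in B against 30784 and 25322 in A, and Sparc had 100802 and 66874 against 53013 and 36217. Lama1 had 82287 and 47204 in B against 18645 and 16426 in A. Together Col4a1, Sparc and Lama1 made up most of the summed counts in every library. By group mean, 10 of the 13 were higher in B and 3 lower (Ttr, Cubn and Apoa1). Ttr had 3.67 and 3.55 in B against 26.7 and 12.9 in A. Of the 8 rare members called higher, 6 ran B1, B2, A1, A2 from high to low, as the endoderm sums did, and so did Msr1 and Plek. Since the 8 were called higher in B, only the order within each group was free to differ. The share of all genes with this order was not counted. The part of endoderm in the values of these members was not tested either. In bulk RNA, more cells of a type and more RNA per cell cannot be told apart.

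**Figure D3:**
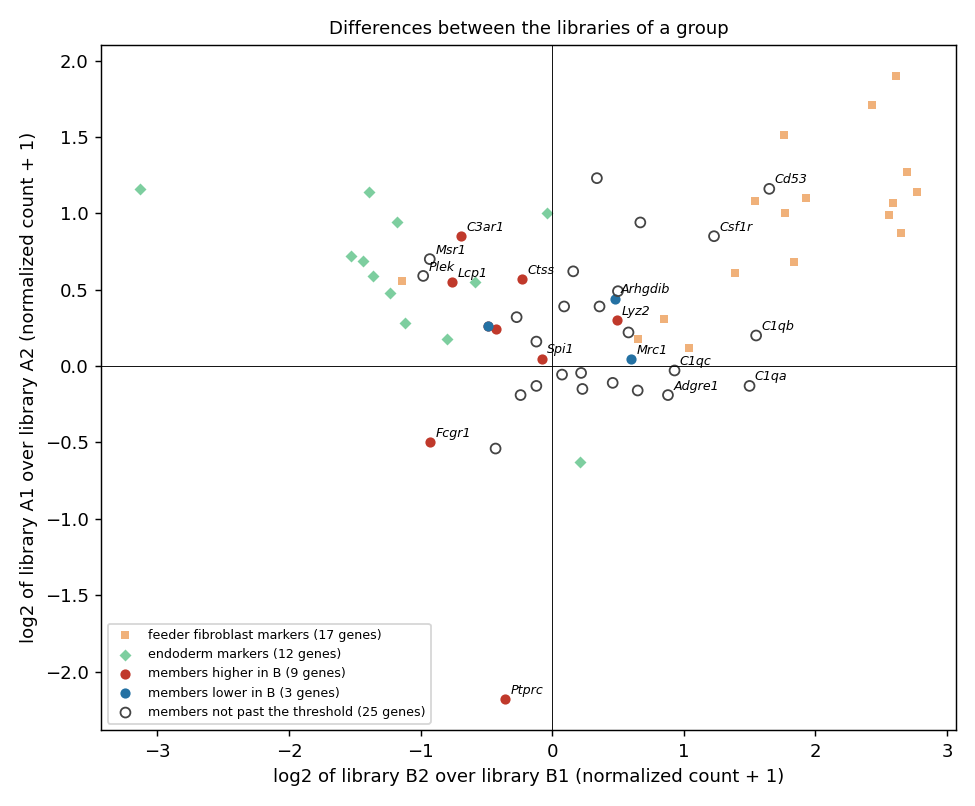
Log2 ratio of library B2 over B1 (horizontal) and of A1 over A2 (vertical), both on normalized count plus 1, for members and for 2 marker lists with a mean of at least 10. Of the feeder markers, 16 of 17 lie at the upper right and most endoderm markers at the upper left, Cd53 and Csf1r lie toward the feeder markers, and 8 of the 9 members higher in B lie left of 0.

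Genes of other blood lineages were set beside the members. Of 8 erythroid genes 0 passed in the authors' deposited table, and the globin genes Hbb-bh1 and Hbb-bs were listed at 0 in every library. Another globin gene, Hba-a1, had normalized counts of 42.2 and 49.7 in B and 21.2 and 22.7 in A. Epor, the erythropoietin receptor, had normalized counts of 187 and 214 in B and 93 and 188 in A, and Klf1 had 55.9 and 44.9 in B and 40.5 and 44.5 in A. Among 11 neutrophil and mast cell genes 0 passed, S100a9 and Fcer1a were listed at 0, and the summed normalized counts were 49.5 to 91 in B and 50.7 to 61.3 in A. The highest of them were Prtn3 and Ltf, with 23.8 and 29.6, and 13.8 and 40.2, in B against 26.7 and 39.6, and 12.9 and 0.989, in A. Of 10 lymphoid genes 1 was lower, Cd3e of the T cell receptor complex, with 61.4 and 87.5 in B against 251 and 232 in A (log2 fold change -1.70, adjusted p 6.77e-05 in the authors' deposited table), which missed the threshold in limma (adjusted p = 0.0514). Of 13 genes of blood progenitors and the endothelium they bud from, 0 passed. In 4 the groups did not overlap, with B on top, and in 2, Tal1 and Myb, with B below. Over all genes averaging 10 or more these shares were 26.4% and 26%. Tal1 had 22 and 22.5 in B against 57.1 and 106 in A, and Myb 99.9 and 130 against 256 and 456. Cdh5, among the 4, had 540 and 214 in B against 139 and 96.9 in A. Pecam1 had 10683 and 11688 in B and 9775 and 9817 in A, and Kit had 9027 and 7201 in B and 8333 and 10399 in A, both also read in stem cells.

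Among 19 further macrophage genes, 0 were higher and 2 lower by the authors' deposited table. Fgr, a Src-family kinase of myeloid cells, had normalized counts of 69.7 and 119 in B against 331 and 433 in A (log2 fold change -2.01, adjusted p 3.72e-06 in the authors' deposited table). Limma missed the threshold for Fgr (adjusted p = 0.0503). Of 14 lysosomal genes, which macrophages share with every cell, 8 passed as higher and 0 as lower by the authors' deposited table, with Cd63, Ctsa and Asah1 at log2 fold changes of 1.27, 0.99 and 0.83. Among these named genes Ctsa missed the threshold in limma (adjusted p = 0.0503). Of all genes averaging 500 or more, as the 14 do, the authors' deposited table called 2.69% higher and 2.95% lower. The 14 were chosen with earlier results known, so nothing is read from these shares. The summed normalized counts of the lysosomal genes were 413801 and 428419 in B against 264641 and 232419 in A. Of the stem cell markers 1 of 8 was called, Utf1, which was lower in B (0.499 of the A mean, adjusted p 0.000237 in the authors' deposited table). By group mean 7 of the 8 were lower in B, and in 6 both B libraries lay below both A libraries. Of all genes averaging 500 or more, 26% had both B libraries below both A libraries.

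**Figure D4:**
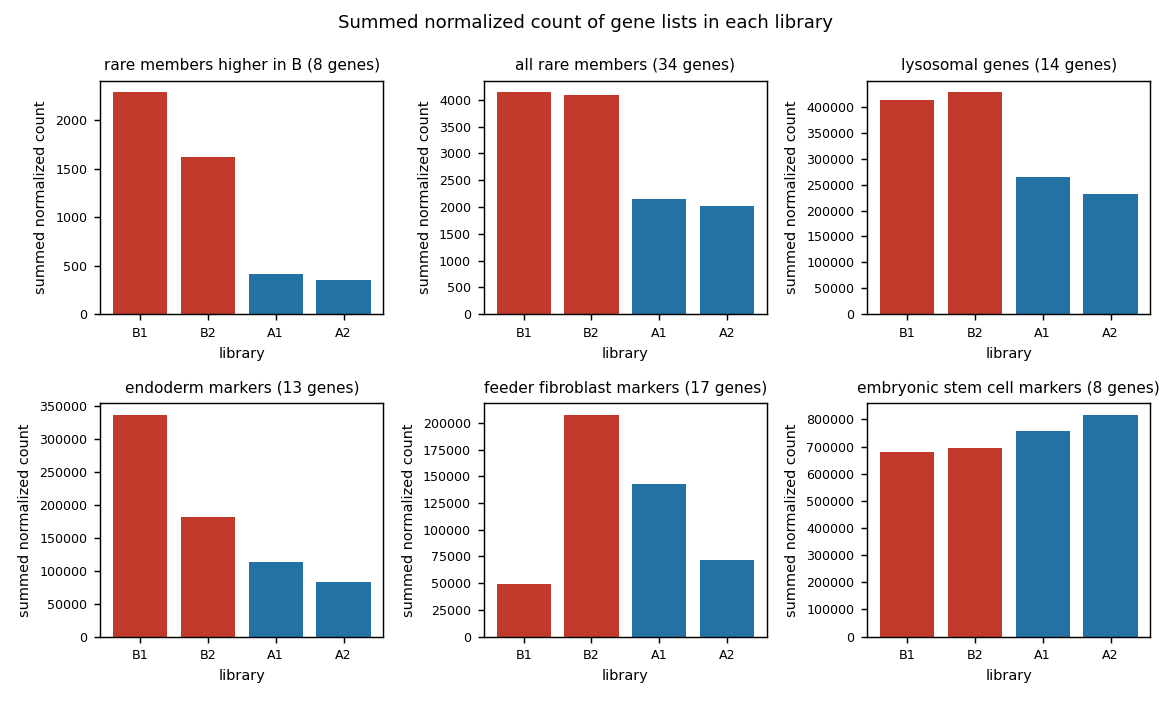
Summed normalized count in each library for the 8 rare members called higher in group B, all 34 rare members and 4 other lists, with bars from 0 on separate scales. The rare members called higher sum to 2289 and 1617 in B against 414 and 349 in A, the feeder markers are highest in B2 and A1, and the endoderm markers in B1.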

How the data were processed

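Polyadenylated RNA of 4 samples was sequenced from stranded TruSeq libraries, per the labels' protocols. The submitters' processing notes name STAR, DESeq and the build mm10; no version, read counter, strand setting or filter was found in the sources read. The deposited table holds, per gene, the mean normalized count signal of each group, their fold ratio, the log2 of that ratio and p-values with and without adjustment, all made by the authors. They were used as deposited, with a threshold of 0.05 over the 30237 genes with a count.

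A group mean is a sum of whole reads times a step for each library. Steps taken from the smallest values gave whole reads within 1e-06 for all genes read in group A (28616) and in group B (28353). In 1700 genes of A and 5 of B another combination of whole reads met this tolerance too, so the one nearest to whole was used; every runner-up was at least 20.5 times worse in A and 205 times in B. Library values rest on this choice. Tests on them used limma 3.58.1 in R 4.3.3, two-sided, with its trend option, on log2(normalized count + 1) of 20465 genes averaging 10 or more, and Benjamini-Hochberg adjustment. This scale understates changes of low genes. Library totals were 112655210 to 146326307, and precision is limited by having 2 libraries in each group. Positions and exon lengths are from GENCODE M21 (mm10).

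Every member could be named. From each other list, up to 3 genes with the smallest adjusted p past the threshold were named, or the 2 with the highest mean, except for 1 macrophage gene that is not reported here; others were chosen after their values were seen. Lyz1, Fcgr4 and genes overlapping members are named as limits. Members and lists were chosen with earlier results of these data known. Alternatives were a threshold of 0.01, pseudocount 5, no filter, total count scaling, a split at 250 and each library left out, where the remaining library of that group is assumed to vary like those of the other.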

Additional observations from a re-analysis of the deposited data

How the results depend on the processing

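The number of members higher in group B, 9 in the authors' deposited table, was 7 at a threshold of 0.01, 5 in limma with or without a filter on the mean, 6 with a pseudocount of 5 or total count scaling, and 0 to 10 with each library left out. For rare members it was 8, against 4 in limma and 0 to 9 with a library left out, alternatives added after seeing the data. The 3 members lower in group B became 0 in limma under each of those 4 settings and 0 to 3 with a library left out. Abundant members higher in group B numbered 1, or 3 with the split at 250, and 0 to 1 with a library left out. The cause was not tested, except that without A1 or A2 the spread comes from the B pair alone. Without B1 or B2 the spread comes from the A pair alone, so counts from those fits give no support to the calls. The median log2 fold change of the members was 1.37, and 0.95 over members with a mean of at least 50, 0.96 with a pseudocount of 5, 1.35 with total count scaling and 0.97 to 1.66 with a library left out. Itgb2 turned to -0.061 without B1 and -0.088 without A2, and Cd53 to -0.0095 without B2. No paired analysis was possible because the table holds group means and the recovered libraries carry no replicate numbers. Depth limits Clec7a, Ly86, Cd48, Cx3cr1 and Ncf4, whose means are below 10.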
